A study of Mus musculus with 9 samples.

Results

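The 10 genes described here are genes of the lung epithelium, followed across 9 lung libraries of a study of ventilator-induced lung injury (VILI). They are 6 genes known as markers of alveolar type 1 cells (Ager, Hopx, Pdpn, Rtkn2, Cav1 and Emp2) and 4 simple-epithelial keratin genes (Krt7, Krt8, Krt18 and Krt19). The 10 genes were chosen by name, with no measured value in the rule, but earlier results of these data were known when they were chosen. Gene identifiers of the deposited table were matched to the GENCODE M21 annotation of the mouse genome build GRCm38, and the values of all transcript rows of a gene were summed. All 10 were found among 27203 gene identifiers, and all 10 had a mean of at least 0.1 FPKM over the 9 libraries and so were among the 19378 genes tested. FPKM, fragments per kilobase of transcript scaled to the mapped fragments of the library, is a level corrected for gene length.

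The libraries came from lungs of male C57BL/6 mice aged 6 to 8 weeks, with 3 mice in each of 3 groups. Control mice were intubated but not put on the ventilator. Both VILI groups received 4 hours of ventilation with breaths of 20 ml/kg and no positive end-expiratory pressure, under ketamine, xylazine and pancuronium, and lungs were taken 0 or 6 hours after its end. No genetic alteration is given for any group. No group was ventilated at a low tidal volume, so stretch, anaesthesia time and ventilation itself cannot be told apart, and the labels give no time point for the controls.

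Alveolar type 1 cells are the very flat cells that cover most of the gas-exchange surface, and alveolar type 2 cells make surfactant and can turn into type 1 cells after damage. During that change, cells pass through a transitional state known for high levels of Krt8 and of other simple keratins, which form the intermediate filaments of the cell. The genes of the type 1 list have different jobs: Ager encodes the receptor RAGE, Hopx a small homeodomain protein without DNA binding of its own, Pdpn the membrane glycoprotein podoplanin, Rtkn2 an intracellular signalling protein, Cav1 the main coat protein of caveolae and Emp2 a tetraspan membrane protein. Several are also made elsewhere: Cav1 is abundant in endothelium, Pdpn in lymphatic endothelium and mesothelium, and the keratins in airway, type 2 and mesothelial cells. In RNA from whole lung, fewer cells of a type and less RNA per cell cannot be told apart.

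Promoter sequences are shown for 3 of the type 1 genes that follow different courses below: Hopx and Pdpn, which were higher in every VILI library than in every control, and Emp2, which was not higher at either time. The sequences are from RefSeq on GRCm38.p6, which had promoters for 8 of the 10 genes (not for Rtkn2 and Krt19). Each is the stretch of 250 bases before an annotated transcript start, 5′ to 3′ on the strand of the gene, and capitals mark matches, on either strand, to 4 motifs: AP-1 (TGANTCA), TEAD (GGAATG), the GC box (GGGCGG) and NKX2-1 (CTCAAG), none of which overlapped another here.
Hopx, chr5:77115124-77115373, minus strand: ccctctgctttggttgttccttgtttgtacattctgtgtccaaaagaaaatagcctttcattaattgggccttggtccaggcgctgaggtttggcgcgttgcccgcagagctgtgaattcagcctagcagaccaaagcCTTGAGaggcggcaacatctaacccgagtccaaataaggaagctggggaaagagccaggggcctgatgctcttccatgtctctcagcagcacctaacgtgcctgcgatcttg
Pdpn, chr4:143299565-143299814, minus strand: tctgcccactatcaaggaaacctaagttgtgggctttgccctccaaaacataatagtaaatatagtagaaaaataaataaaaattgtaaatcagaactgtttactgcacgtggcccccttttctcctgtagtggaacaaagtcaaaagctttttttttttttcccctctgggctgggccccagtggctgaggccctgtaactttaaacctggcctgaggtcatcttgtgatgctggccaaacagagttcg
Emp2, chr16:10313969-10314218, minus strand: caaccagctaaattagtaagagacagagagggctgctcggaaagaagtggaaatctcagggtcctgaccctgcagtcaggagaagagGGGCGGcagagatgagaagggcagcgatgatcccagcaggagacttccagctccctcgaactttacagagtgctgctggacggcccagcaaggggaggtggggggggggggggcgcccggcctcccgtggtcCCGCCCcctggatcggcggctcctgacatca

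The Hopx stretch held 1 match to the NKX2-1 motif, 112 bases before the start and on the opposite strand; a second annotated Hopx start, whose stretch (chr5:77095268-77095517) is not printed, had no match to the 4 motifs. The Emp2 stretch held 2 GC boxes, 163 and 31 bases before the start. The Pdpn stretch held none of the 4 motifs. Of the members not printed, Krt7 held 4 GC boxes and a Cav1 stretch held 1. The other Cav1 stretch and those of Ager, Krt8 and Krt18 held none of the 4 motifs. Of 32851 mouse promoters of the same length, 13.3% held the NKX2-1 letters, 32.7% a GC box, 12.6% the TEAD letters and 6.75% the AP-1 letters. These are matches of letters only.

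Some facts about the libraries come before the results. The sums of FPKM per library ran from 366360 to 388459, and the table holds no counts per gene, so the error of a value is known only from 3 mice per group. The read totals per library that the study lists were not used here. The summed level of 10 neutrophil markers was 50.6 to 57.6 FPKM in controls, 575 to 1046.5 at VILI 0 hours, and 470.6, 1061 and 2164 in replicates 1, 2 and 3 of VILI 6 hours. Replicate 1 of VILI 6 hours stood apart from the other 2 of its group: without it, 38.8% of all genes tested passed an unadjusted P under 0.05 against control, where 20.4% passed with it, and it had the highest sums of 8 mesothelial markers (142.8 FPKM, against 59.9 to 97.7 elsewhere) and of 10 airway markers. The sum of 10 cardiac muscle markers was 384.4 FPKM in replicate 3 of VILI 0 hours and 172.9 to 205.6 in the other 8 libraries. For 5 of the 10 genes, GENCODE M21 has a gene on the opposite strand that overlaps them: Hopxos at Hopx, Gm15581 at Cav1, Gm16212 at Rtkn2, Gm671 at Krt7 and Gm36026 at Krt8. The use of strand in the estimation is not given in the sources used here, so reads of these pairs may not be told apart in the values of the 5 genes. The part of the library differences in the results below was not tested, and values without these libraries are given where they change a call.

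In control lungs, the type 1 genes included some of the most abundant transcripts. Ager had a mean level of 597 ± 24.5 FPKM (SD, n = 3), rank 40 of the 19378 genes, followed by Emp2 with 337 ± 19.5, Hopx with 285 ± 11.97 and Cav1 with 110 ± 7.97. Rtkn2 had 72.9 ± 21.6 FPKM. The keratins lay lower, with Krt19 at 55.1 ± 1.93, Krt8 at 54.7 ± 2.48, Krt18 at 44.9 ± 2.895 and Krt7 at 38.1 ± 2.06 FPKM, and Pdpn was the lowest of the 10 at 27.7 ± 3.68. The ranges of neighbours in this order overlapped between Rtkn2 and Krt19 and between Krt19 and Krt8, and for no other pair of neighbours. In both VILI groups, Hopx took the second place from Emp2. The levels of the 2 genes did not overlap at VILI 0 hours and did overlap at VILI 6 hours, and by then the ranges of all neighbours from Cav1 down overlapped.

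**Figure D1:**
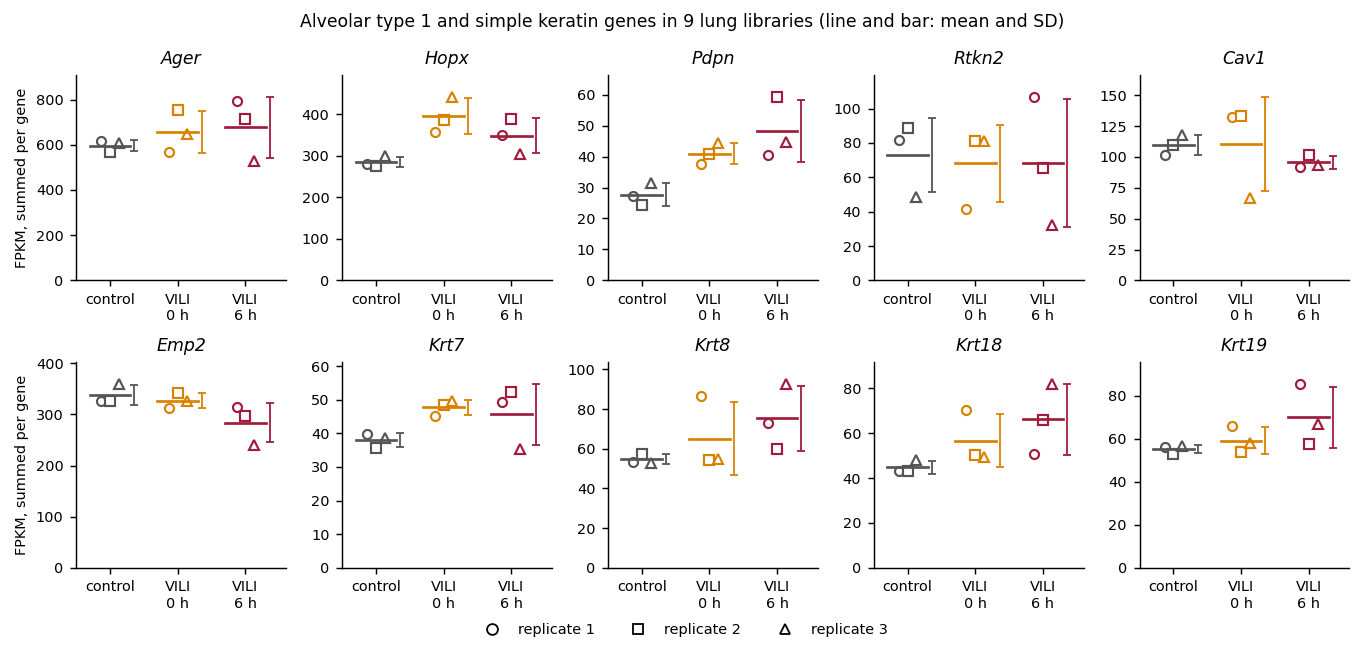
Level of each of the 10 genes in each library, in FPKM summed over the transcript rows of the gene (vertical axis from 0), for control, VILI 0 h and VILI 6 h. Symbols are single mice, the line is the group mean and the bar its SD (n = 3). Every VILI library of Hopx and Pdpn lies above the 3 controls, whereas Ager and Rtkn2 spread widely within both VILI groups and Cav1 within VILI 0 h.

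The question for each gene was whether its level differed between lungs ventilated at high volume and control lungs. The test was limma on log2(FPKM + 0.1) over all 9 libraries, two-sided, with Benjamini-Hochberg adjustment over all 19378 genes; "called" means P below 0.05 before adjustment, which is the cutoff the study used, and the adjusted p is what the text prints. At VILI 0 hours, 3 of the 10 genes were called higher and none lower (Hopx, Pdpn and Krt7), against 16.2% of all genes tested called in either direction, 6.81% higher and 9.35% lower. At VILI 6 hours, 4 were called higher and none lower (Hopx, Pdpn, Krt18 and Krt19), against 20.4% of all genes in either direction, 8.17% higher and 12.2% lower. Among the 6600 genes with a mean of at least 10 FPKM, as the 10 have, 18.1% and 22.5% were called at these times. None of the 10 passed an adjusted p under 0.05 in either comparison, which 0.284% of all genes did at VILI 0 hours and 0.702% at VILI 6 hours. Both comparisons used the same 3 controls, so they are not independent.

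In terms of overlap, 4 genes were higher in every VILI 0 hours library than in every control (Hopx, Pdpn, Krt7 and Krt18), as were 12% of all genes tested; 21.6% of all genes were lower in every library, and 33.5% did not overlap in one direction or the other (38.6% of the genes with at least 10 FPKM). At VILI 6 hours, 5 genes were higher in every library (Hopx, Pdpn, Krt8, Krt18 and Krt19), as were 9.64% of all genes, and 2 were lower in every library (Cav1 and Emp2), as were 15% of all genes; 24.6% did not overlap in either direction (27.5% of those with at least 10 FPKM). An exact permutation test of 3 against 3 cannot give a two-sided p under 0.1, and it gave 0.1 for each of these. The median log2 fold change of the 6 type 1 genes was 0.04 at VILI 0 hours and -0.02 at VILI 6 hours, and that of the 4 keratins was 0.27 and 0.38, beside -0.07 and -0.09 over all genes tested. Single libraries moved these medians: with 1 library left out, that of the type 1 genes ran from -0.02 (without replicate 2 of VILI 0 hours) to 0.22 (without replicate 1) at VILI 0 hours, where it was 0.21 without replicate 3, and from -0.06 (without replicate 1 or 2 of VILI 6 hours) to 0.29 (without replicate 3) at VILI 6 hours. Without any 1 of the controls it was 0.07 at VILI 0 hours and 0.02 to 0.04 at VILI 6 hours. The keratin median ran from 0.085 (without replicate 1 of VILI 0 hours) to 0.32 and from 0.31 to 0.49.

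The scale of these values matters for the small ones. Centring each library on the median of its genes moved every log2 fold change against control by about 0.1. The shift was -0.11 at VILI 0 hours and -0.13 at VILI 6 hours, so values on the FPKM scale read lower than centred ones by that amount. Between the VILI groups it was -0.01. The type 1 and keratin medians at VILI 0 hours were 0.16 and 0.38 with this centring. Centring on 12 pan-epithelial genes, described below, gave shifts of -0.09 at VILI 0 hours and 0.17 at VILI 6 hours. These medians at VILI 0 hours were then 0.14 and 0.36. With median centring, the share of called genes that were higher went from 42.1% to 61.2% at VILI 0 hours and from 40.1% to 58.1% at VILI 6 hours. On that scale 6 of the 10 genes were called at VILI 6 hours, where 20.2% of all genes were, Krt7 and Krt8 being the additional ones.

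**Figure D2:**
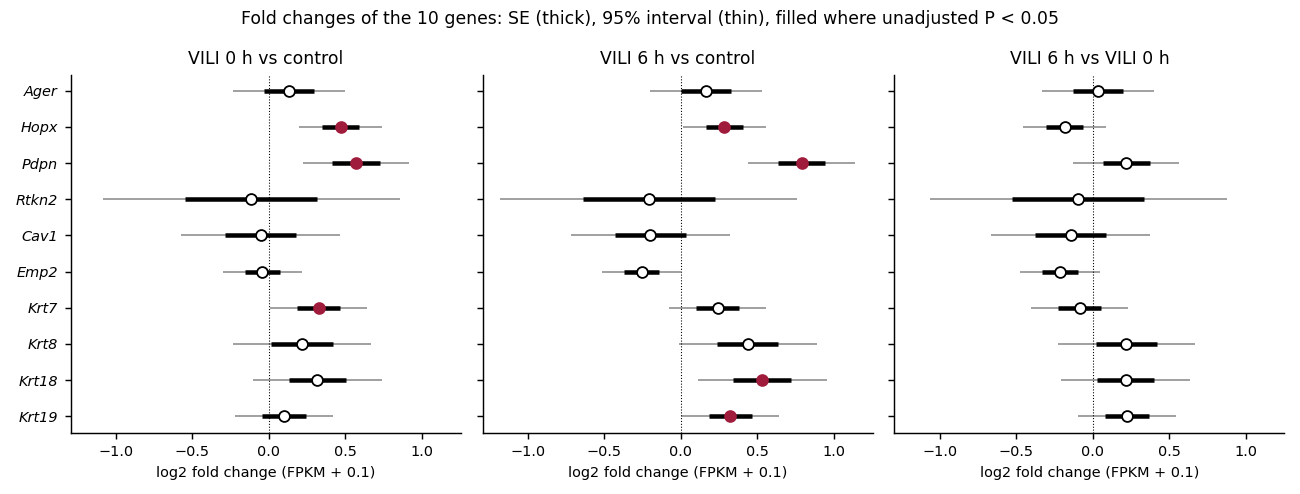
Log2 fold change of each gene in the 3 comparisons, with the standard error (thick bar) and the 95% interval (thin bar). Filled points passed an unadjusted P under 0.05. Pdpn is the furthest from 0 in both comparisons with control, and no gene is filled in the comparison between the VILI groups.

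Pdpn (chr4:143267431-143299564, minus strand) had the largest difference of the 10. Its levels were 27.2, 24.2 and 31.5 FPKM in the controls, 37.7, 40.7 and 44.5 at VILI 0 hours and 40.5, 59.4 and 44.9 at VILI 6 hours. Each VILI library lay above the highest control, and replicate 2 of VILI 6 hours was the highest of all. The log2 fold change was 0.57 ± 0.15 (SE) at VILI 0 hours (adjusted p = 0.124) and 0.79 ± 0.15 at VILI 6 hours (adjusted p = 0.0587). The gene was called at both times under all 21 settings tried, with log2 fold changes of 0.48 to 0.69 and of 0.62 to 0.92. The adjusted p at VILI 6 hours was 0.00549 without replicate 1 of that group, where 23.3% of all genes passed the adjusted threshold. From 0 to 6 hours the difference was 0.22, with a 95% interval of -0.13 to 0.57.

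Podoplanin is also made by lymphatic endothelium and mesothelium. Of 6 lymphatic markers, 2 were called higher at each time, as were 6.81% and 8.17% of all genes tested. The summed level of the 6 was 115.7 to 139.6 FPKM in controls, 143.4 to 233.2 at VILI 0 hours and 126.1 to 315.2 at VILI 6 hours. Mmrn1, a lymphatic matrix gene, was the largest of those called at VILI 0 hours (0.66 ± 0.16, adjusted p = 0.0999) and Reln, the extracellular protein reelin, at VILI 6 hours (0.59 ± 0.18, adjusted p = 0.134). The 2 defining lymphatic markers were Prox1, the lineage transcription factor, at 0.627 to 1.001 FPKM over all libraries, and Lyve1, a hyaluronan receptor, at 80.1 to 100.05 FPKM in controls and 87.7 to 285.4 in VILI libraries. The sum is mostly Lyve1, and not all markers moved with it: Ccl21a, a lymphatic chemokine gene with near-identical copies that may share its reads, had 14.9 to 17.7 FPKM in controls and 15.8, 6.92 and 0 at VILI 6 hours, and was not called. The mean log2 level of the 6 markers was lowest in replicate 3 of VILI 6 hours (2.26, against 2.89 to 3.37 elsewhere), the library with the highest sum. Of 8 mesothelial markers, none was called at VILI 0 hours and 1, the transcription factor gene Wt1, was called higher at VILI 6 hours (1.07 ± 0.22, adjusted p = 0.0641), at levels of 0.660 to 0.885 FPKM in controls and 1.65 to 1.78 FPKM. The defining mesothelial markers Msln and Upk3b were highest in replicate 1 of VILI 6 hours, at 50.1 and 24.8 FPKM, against 17.6 to 27.5 and 5.73 to 13.4 in the other 8 libraries. The mesothelial sum in replicates 2 and 3 of VILI 6 hours was 87.2 and 59.9 FPKM, within or under the 85.7 to 97.7 of the controls. The part of lymphatic and of mesothelial cells in the Pdpn values was not tested.

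Hopx (chr5:77086988-77115121, minus strand) was higher at both times. The controls had 279, 277 and 299 FPKM, the VILI 0 hours libraries 358, 386 and 443, and the VILI 6 hours libraries 351, 390 and 306. No VILI library fell into the control range, although replicate 3 of VILI 6 hours lay close to it. In log2 terms the difference was 0.47 ± 0.12 at VILI 0 hours (adjusted p = 0.111) and 0.28 ± 0.12 at VILI 6 hours (adjusted p = 0.227). The call at VILI 0 hours held under all 21 settings, and that at VILI 6 hours under 12 of 21; the latter was lost without any 1 of the controls, replicate 2 of VILI 0 hours or replicate 1 or 2 of VILI 6 hours, with values of 0.20 to 0.32, and with centring on pan-epithelial genes, where it was 0.11. Between the times the difference was -0.18, with an interval of -0.45 to 0.09, and with the same centring it was -0.45 and was called.

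Ager (chr17:34597862-34600936, plus strand), the most abundant of the 10, did not pass the test in any comparison. Its levels were 615, 569 and 607 FPKM in the controls, 570, 755 and 646 at VILI 0 hours and 791, 714 and 529 at VILI 6 hours. The highest and the lowest value of all 9 libraries were both in the VILI 6 hours group. On the log2 scale it differed by 0.13 at VILI 0 hours (interval -0.24 to 0.50) and 0.16 at VILI 6 hours (interval -0.20 to 0.53), the latter being -0.01 with centring on pan-epithelial genes. Without replicate 3 of VILI 6 hours, the library with the highest neutrophil sum, the value at VILI 6 hours was 0.33 and was called.

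Emp2 (chr16:10281749-10313968, minus strand) had lower values at VILI 6 hours but did not pass the test. Its levels were 326, 326 and 360 FPKM in the controls, 314, 341 and 327 at VILI 0 hours and 314, 297 and 241 at VILI 6 hours. The VILI 0 hours libraries lay around the controls and all VILI 6 hours libraries lay under them, replicate 3 by the most. The log2 fold change at VILI 0 hours was -0.04 ± 0.12 (adjusted p = 0.891), or 0.07 with median centring, and at VILI 6 hours it was -0.26 ± 0.12 (adjusted p = 0.250), with an interval of -0.52 to 0.00 at VILI 6 hours. Emp2 was called lower at VILI 6 hours under 5 of 21 settings, and the value was -0.33 without replicate 1 of that group.

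Cav1 (chr6:17306335-17341452, plus strand) had 102, 109 and 118 FPKM in the controls, 133, 133 and 66.6 at VILI 0 hours and 91.6, 101 and 93.5 at VILI 6 hours. At VILI 0 hours, 2 libraries were above all controls and replicate 3, the one with the high cardiac muscle sum, was far below them. All VILI 6 hours libraries were below the controls, the nearest by less than 1 FPKM. The log2 fold change at VILI 0 hours was -0.05 (interval -0.58 to 0.47), or 0.06 with median centring, and at VILI 6 hours it was -0.20 (interval -0.72 to 0.32). Both intervals rest on the spread within all 3 groups. The SD was 38.2 FPKM at VILI 0 hours, against 7.97 in controls and 5.23 at VILI 6 hours. Without replicate 3 of VILI 0 hours, the value at that time was 0.28 and from VILI 0 to 6 hours it was -0.48, and both were called.

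Rtkn2 (chr10:67979570-68059740, plus strand) varied too much between mice for a comparison. Its levels were 81.7, 88.8 and 48.3 FPKM in the controls, 41.8, 81.2 and 81.2 at VILI 0 hours and 107, 65.6 and 32.2 at VILI 6 hours. Low and high values occurred in every group. The log2 fold changes of -0.12 and -0.21 had intervals of -1.09 to 0.86 and -1.18 to 0.76, so that a rise or a fall of moderate size was not detectable with 3 mice per group.

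Ratios within a library do not depend on its scale; these were chosen after the values had been seen. Hopx to Emp2 was 0.845 ± 0.0137 in controls, 1.21 ± 0.125 at VILI 0 hours and 1.23 ± 0.103 at VILI 6 hours (SD, n = 3; exact permutation p = 0.1 for each time against control). Pdpn to Emp2 was 0.0818 ± 0.00685, 0.125 ± 0.00946 and 0.172 ± 0.0377 in the same order (exact permutation p = 0.1 for each). For these 2 ratios every VILI library exceeded every control. At VILI 6 hours this followed from the levels given above, with Hopx and Pdpn above every control and Emp2 below. The ratios and their permutation p of 0.1, the lowest possible, therefore add no further test. The ratios to Ager did not all separate the groups: Hopx to Ager was 0.478 ± 0.0204, 0.609 ± 0.0886 and 0.522 ± 0.0702 (exact permutation p = 0.1 and 0.4) and Pdpn to Ager 0.0463 ± 0.00501, 0.0630 ± 0.00799 and 0.0731 ± 0.0190 (exact permutation p = 0.1 and 0.2), and in both the VILI 6 hours range overlapped that of the controls. Emp2 to Ager was 0.566 ± 0.0320, 0.503 ± 0.0491 and 0.423 ± 0.0298 (exact permutation p = 0.2 and 0.1).

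The keratins were compared in the same way. Krt8 and Krt18 encode partners that pair into one filament and lie close together on chromosome 15 (chr15:101996698-102004482, minus strand, and chr15:102028180-102032027, plus strand). Krt8 had 53.5, 57.5 and 53.0 FPKM in the controls, 86.3, 54.3 and 54.6 at VILI 0 hours and 73.0, 60.0 and 92.7 at VILI 6 hours. A single library was high at VILI 0 hours, and all 3 were above the controls at VILI 6 hours. Its log2 fold change was 0.22 ± 0.20 (adjusted p = 0.632) and 0.44 ± 0.20 (adjusted p = 0.255), with an interval of -0.01 to 0.89 at VILI 6 hours. Without replicate 1 of VILI 0 hours, the value at that time was -0.0035 and that at VILI 6 hours was called (0.44), as it was without replicate 2 of VILI 6 hours (0.59). A pseudogene of Krt8, whose reads could be shared with it, was not analysed here.

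Krt18 had 43.3, 43.2 and 48.2 FPKM in the controls, 70.5, 50.3 and 49.2 at VILI 0 hours and 50.7, 65.7 and 82.0 at VILI 6 hours. All 6 VILI libraries were above the controls, and 3 of them lay close to the highest control. Its log2 fold change was 0.32 ± 0.19 at VILI 0 hours (adjusted p = 0.443) and 0.53 ± 0.19 at VILI 6 hours (adjusted p = 0.171). The call at VILI 6 hours held under 17 of 21 settings; without replicate 1 of that group the value was 0.71 with an adjusted p of 0.0183, and without replicate 3 it was 0.36 and not called, and it was 0.51 and not called without control replicate 1 or 2. The ratio of Krt8 to Krt18 was 1.22 ± 0.117 in controls, 1.14 ± 0.0765 at VILI 0 hours and 1.16 ± 0.264 at VILI 6 hours (exact permutation p = 0.4 and 0.7).

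Krt19 (chr11:100140810-100148665, minus strand), a type I keratin of simple epithelia, had 56.0, 52.9 and 56.5 FPKM in the controls, 65.9, 54.0 and 57.8 at VILI 0 hours and 85.6, 57.5 and 66.9 at VILI 6 hours. The VILI 6 hours libraries were all above the controls, and replicate 1 was the highest. The log2 fold change at VILI 6 hours was 0.32 ± 0.14 (adjusted p = 0.240), a call that held under 9 of 21 settings, and it was 0.17 and not called without replicate 1 of that group. It was also lost without replicate 3 of that group (0.35), replicate 2 or 3 of VILI 0 hours or any 1 of the controls (0.30 to 0.34). At VILI 0 hours it was 0.10 (interval -0.22 to 0.42).

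Krt7 (chr15:101411043-101430313, plus strand), a type II keratin, had 39.7, 35.7 and 38.7 FPKM in the controls, 45.3, 48.3 and 49.6 at VILI 0 hours and 49.3, 52.4 and 35.3 at VILI 6 hours. Of the 6 VILI libraries, 5 were above the controls, and replicate 3 of VILI 6 hours was below all 3. Its log2 fold change was 0.33 ± 0.14 at VILI 0 hours (adjusted p = 0.297), a call held under 11 of 21 settings and lost when any control or VILI 0 hours library was left out. It was 0.24 (adjusted p = 0.35) at VILI 6 hours and 0.42, which was called, without replicate 3 of that group. From VILI 0 to 6 hours, none of the 10 genes was called, where 10% of all genes were (5.06% higher and 4.94% lower; 12.4% of those with at least 10 FPKM), and the smallest unadjusted P was that of Emp2 (0.0954). Calls in this comparison appeared when 1 library was left out: Emp2 (-0.29) and Krt18 (0.39) without replicate 1 of VILI 6 hours, Krt8 (0.44) without replicate 1 of VILI 0 hours, Krt19 (0.36) without replicate 2 of VILI 6 hours and Cav1 (-0.48) without replicate 3 of VILI 0 hours. In these fits 22.4% of all genes were called without replicate 1 of VILI 6 hours and 7.26% to 9.84% without the other 3 libraries. None of the 10 separated the VILI groups without overlap either, as 12.5% of all genes did (6.25% higher and 6.28% lower; 14.9% of those with at least 10 FPKM), and no gene of any kind passed the adjusted threshold (0%) in this limma comparison, where 1938 passed the unadjusted one. Without replicate 1 of VILI 6 hours, 356 genes (1.84%) passed the adjusted threshold, and none of the 10 was among them.

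Within groups, some of the genes varied together from mouse to mouse and others in opposite directions. Over the deviations of the 9 libraries from their group means on the log2 scale, Pearson r was 0.90 between Ager and Emp2, 0.81 between Ager and Rtkn2, 0.83 between Ager and Krt7 and 0.71 between Krt8 and Krt18. It was -0.76 between Ager and Krt8 and -0.96 between Rtkn2 and Krt18, and 0.04 between Ager and Cav1. These are descriptions, since the 10 genes of a library share its RNA and its scale. In replicate 3 of VILI 6 hours, Krt8 and Krt18 had the highest level of all 9 libraries, whereas Ager, Rtkn2 and Emp2 had their lowest and Krt7 was under the controls. Replicate 1 of VILI 0 hours resembled it in part: Krt8 and Krt18 were the highest of that group, and Ager, Rtkn2 and Emp2 the lowest. In the other 4 VILI libraries Krt8 and Krt18 were lower than in these, and Ager was above the control mean in all 4. The neutrophil sum was 575 FPKM in replicate 1 of VILI 0 hours, the lowest of that group, and 2164 in replicate 3 of VILI 6 hours, the highest of its group. Within VILI 6 hours it rose from replicate 1 to 3 (470.6, 1061 and 2164 FPKM). In the same order Krt18 rose (50.7, 65.7 and 82.0) and Ager fell (791, 714 and 529). The part of the makeup of single lungs in this was not tested.

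**Figure D3:**
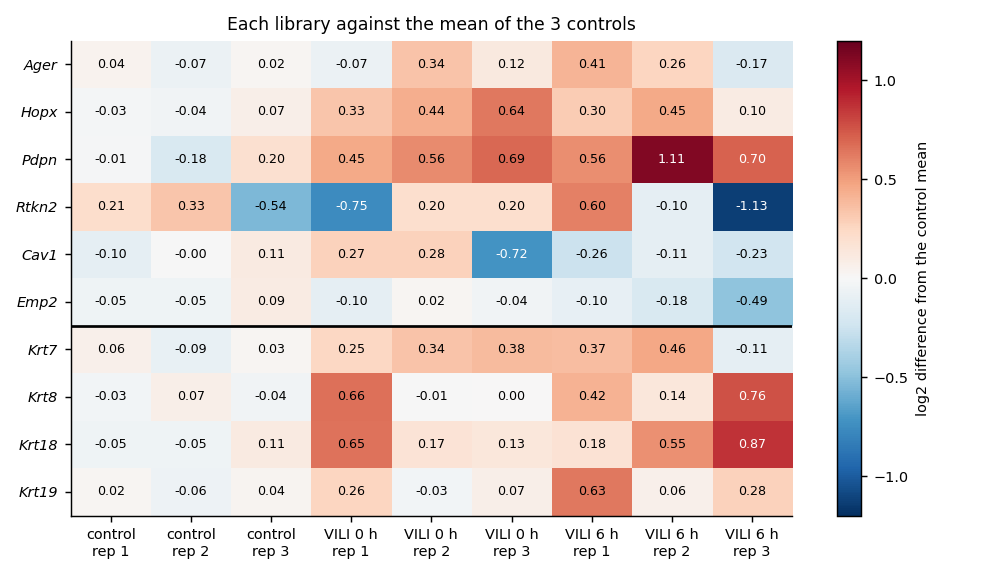
Log2 difference of each library from the mean of the 3 controls, for the 6 type 1 genes (above the line) and the 4 keratins (below). Red is higher and blue lower; the numbers in the cells are the log2 differences. Krt8 and Krt18 are highest in VILI 6 h replicate 3 (0.76 and 0.87), where Rtkn2 is lowest (-1.13).

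Transcript rows of the table, which carry no transcript name, show where a gene sum came from. Krt8, Krt18, Krt19 and Emp2 have 1 row each. One row held 83.8% to 88.2% of the Hopx sum in every library, and its log2 fold changes were 0.49 (adjusted p = 0.244) and 0.30 (adjusted p = 0.362). For Pdpn, 1 row held at least 98.3% of the sum, and this row rose by 0.58 at VILI 0 hours (adjusted p = 0.262) and by 0.80 at VILI 6 hours (adjusted p = 0.138) on the log2 scale. Of all 37300 rows tested, 11% and 13.2% were called at the 2 times and 7.4% between them. The other Hopx rows, with means of 24.6 and 21.9 FPKM, had log2 fold changes of 0.29 and 0.36 at VILI 0 hours and 0.01 and 0.39 at VILI 6 hours, none of them called.

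Ager has 3 rows, the first with 73.5% to 80.1% of the sum, and none of the 3 was called. Rtkn2 was different: its first and second row held 28.3% to 80.7% and 11.1% to 71.4% of the sum. The first had 42.5, 44.0 and 39.0 FPKM in the controls, 23.2, 46.1 and 39.2 at VILI 0 hours and 30.3, 34.2 and 17.9 at VILI 6 hours, all of the last below all controls (-0.66 ± 0.30, adjusted p = 0.388). The second had 39.2, 44.8 and 5.38 FPKM in the controls and 76.4, 31.4 and 14.2 at VILI 6 hours. In control replicate 3, whose second row was low, the remaining row, which was at most 0.292 FPKM elsewhere, had 3.94 FPKM.

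Cav1 has 7 rows, of which the fifth held 41.9% to 64.2% and the third 21.5% to 33.2% of the sum. In replicate 3 of VILI 0 hours the fifth row had 27.9 FPKM, against 44.8 to 85.1 in the other libraries, and a seventh row, listed at 0 in the other 8 libraries, had 0.878. The first Cav1 row was called lower at VILI 0 hours, at 11.5, 14.4 and 12.7 FPKM in controls and 6.74, 10.45 and 7.54 FPKM (-0.66 ± 0.19, adjusted p = 0.291). A minor row of Krt7, with a mean of 1.37 FPKM, was called higher at VILI 6 hours (0.81 ± 0.25, adjusted p = 0.264). Among the genes with 1 row, Emp2 was called lower (-0.26, adjusted p = 0.353) and Krt18 higher at VILI 6 hours in the fit of single rows.

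**Figure D4:**
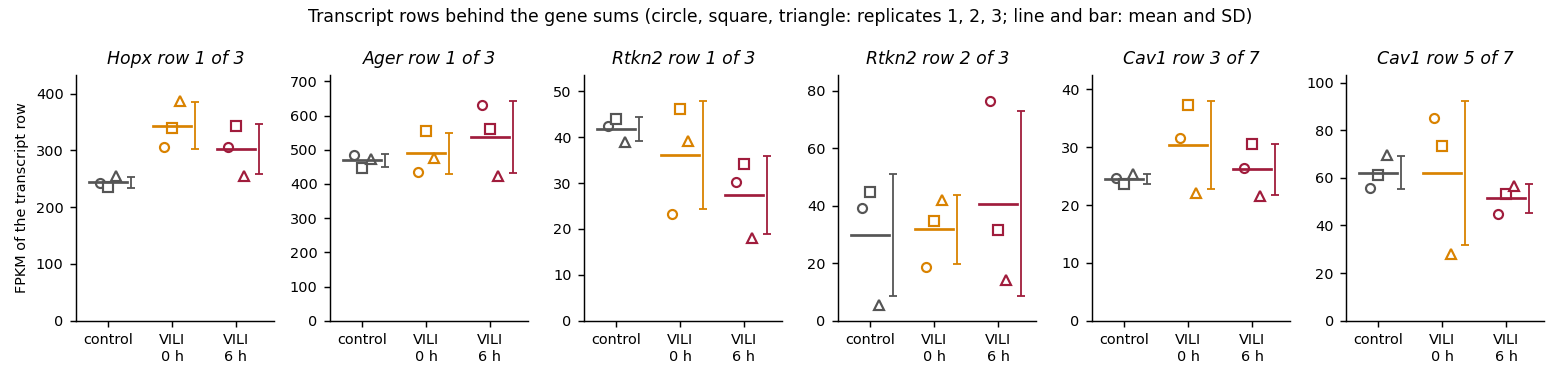
Level in FPKM (vertical axis from 0) of 6 single transcript rows of Hopx, Ager, Rtkn2 and Cav1 in control, VILI 0 h and VILI 6 h; symbols are mice, line and bar the mean and SD. The main Hopx row separates control from VILI, whereas the second Rtkn2 row ranges from 5.38 to 76.4 FPKM and the fifth Cav1 row is low in 1 VILI 0 h mouse.

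Other genes of the alveolar type 1 cell were read from a list of 19. Of these, at VILI 0 hours, 3 were called higher and 1 lower, with a median log2 fold change of -0.04, and at VILI 6 hours 2 higher and 1 lower, with a median of -0.05. Of all genes tested, 6.81% were called higher and 9.35% lower at VILI 0 hours, and 8.17% and 12.2% at VILI 6 hours. The counts of this and the following lists are to be read beside these shares. Pxdc1 rose the most of those called at both times (0.91 ± 0.28, adjusted p = 0.167, and 0.88 ± 0.28, adjusted p = 0.147), from 38.8 to 40.2 FPKM in controls to 63.2 to 98.2 at VILI 0 hours and 43.5, 92.6 and 94.2 at VILI 6 hours. Scnn1g, a subunit of the epithelial sodium channel, rose at VILI 0 hours (0.60 ± 0.15, adjusted p = 0.1), and so did Fstl3, a secreted inhibitor of activins (0.45 ± 0.18, adjusted p = 0.255). Vegfa, the endothelial growth factor made by type 1 cells, fell at VILI 0 hours (-0.47 ± 0.18, adjusted p = 0.249), and Clic5, an intracellular chloride channel protein, at VILI 6 hours (-0.32 ± 0.14, adjusted p = 0.243). Icam1, an adhesion molecule for leukocytes, was called higher at VILI 6 hours (0.56 ± 0.23, adjusted p = 0.217) and against VILI 0 hours (0.88 ± 0.23, adjusted p = 0.286). Aqp5, the type 1 water channel, had 61.5 to 69.2 FPKM in controls, 49.6 to 57.7 at VILI 0 hours and 81.3, 57.1 and 28.7 at VILI 6 hours.

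None of these 19 genes passed the adjusted threshold. Without replicate 1 of VILI 6 hours, 2 of the 19 were called higher and 6 lower at that time, where 12.8% of all genes were called higher and 26% lower, 38.8% in all. That library had the highest Aqp5 level and replicate 3 the lowest, as for Rtkn2 and Ager.

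A list of 20 genes known from the damage-associated transitional state of alveolar epithelium was read beside the keratins. At VILI 0 hours 4 were called higher and 3 lower, with a median log2 fold change of 0.34, and at VILI 6 hours 11 were called higher and 1 lower, with a median of 0.63. Of all genes tested, 6.81% were called higher and 9.35% lower at VILI 0 hours (median -0.07). At VILI 6 hours these shares were 8.17% and 12.2% (median -0.09). At the adjusted threshold, Lgals3 passed at VILI 6 hours (0.75 ± 0.12, adjusted p = 0.0310). It did not without control replicate 2, where 0% of all genes passed. Lgals3, which encodes galectin-3 and is also high in macrophages, had 53.1, 51.2 and 46.9 FPKM in controls, 66.5, 79.5 and 65.7 at VILI 0 hours and 97.6, 77.0 and 81.1 at VILI 6 hours, with no overlap between control and either VILI group. Many genes of this list are also made by neutrophils, macrophages or endothelium, and the part of those cells was not tested.

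The first genes of that list are Cldn4, a tight-junction claudin, and Sfn, a phosphoprotein-binding adaptor of epithelial cells. Cldn4 had 1.81, 1.49 and 1.28 FPKM in controls, 4.68, 1.75 and 1.36 at VILI 0 hours and 1.91, 3.78 and 13.2 at VILI 6 hours (1.55 ± 0.64 at VILI 6 hours, adjusted p = 0.222). Sfn had 8.20, 9.13 and 6.69 FPKM in controls, 16.3, 6.77 and 5.94 at VILI 0 hours and 12.9, 11.5 and 48.0 at VILI 6 hours (1.27 ± 0.53, adjusted p = 0.226). For both, the highest library was replicate 3 of VILI 6 hours and the highest of VILI 0 hours was replicate 1, the same libraries as for Krt8 and Krt18.

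Cdkn1a, the cell-cycle inhibitor p21, rose the most of those called at VILI 0 hours (2.83 ± 0.79, adjusted p = 0.135), from 14.2 to 19.0 FPKM in controls to 207, 43.0 and 173. Fosl1, an AP-1 subunit, had the largest value of those called at VILI 6 hours (2.94 ± 0.82, adjusted p = 0.116), but at levels of 0 to 0.0341 FPKM in controls and 0.215, 0.463 and 4.15, where the fold change depends on the pseudocount. Sox4, a transcription factor gene, fell at both times (-1.63 ± 0.38, adjusted p = 0.091, and -1.55 ± 0.38, adjusted p = 0.0901), from 32.3 to 36.5 FPKM in controls to 8.33 to 14.5 and to 23.6, 7.79 and 8.44. Without replicate 3 of VILI 6 hours, 8 of the 20 were called higher at that time, where 6.63% of all genes were, and without replicate 1 of that group 14 were, where 12.8% of all genes were. From VILI 0 to 6 hours 5 were called higher and none lower, among them Fosl1 (2.41 ± 0.82, adjusted p = 0.393).

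**Figure D5:**
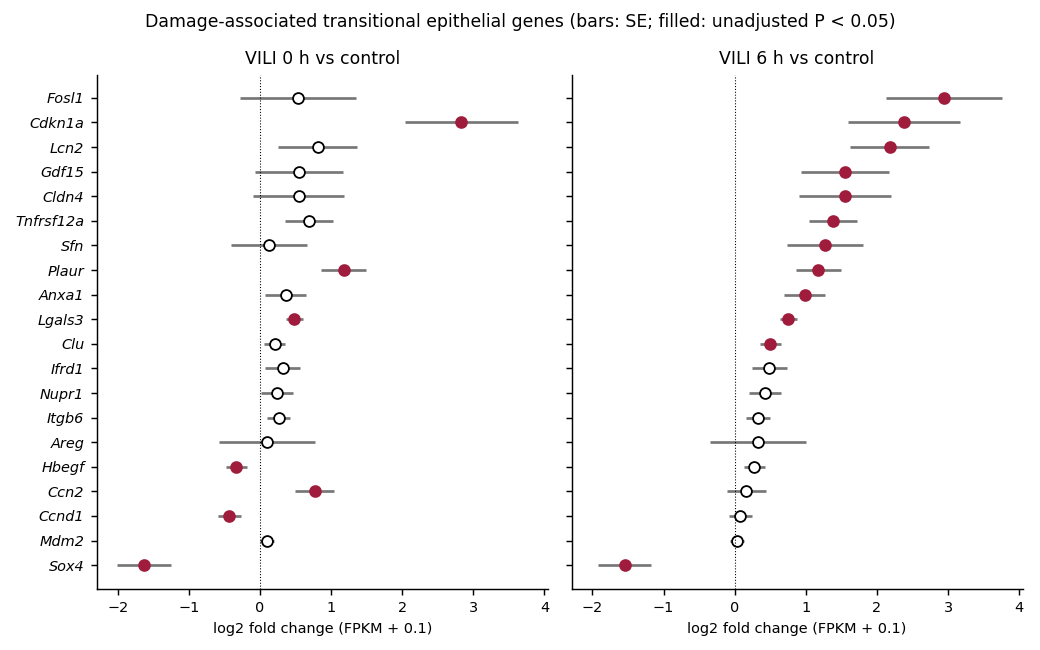
Log2 fold change against control of 20 genes of the damage-associated transitional state at VILI 0 h and VILI 6 h, ordered by the value at 6 h; bars are standard errors and filled points passed an unadjusted P under 0.05. Sox4 is lower at both times, Cdkn1a is higher at both times and 11 genes are filled on the higher side at VILI 6 h.

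Of 19 other keratins and filament partners, 13 passed the filter of 0.1 FPKM. The first keratins of the list, of squamous and basal cells, were near 0: Krt4 was at most 0.104 FPKM and Krt5 at most 0.406 FPKM in any library. Krt80, a type II keratin, was the one that passed the adjusted threshold at VILI 6 hours (0.76 ± 0.14, adjusted p = 0.0487), with 36.6, 37.1 and 37.1 FPKM in controls, 45.1, 49.5 and 51.7 at VILI 0 hours and 51.0, 77.5 and 62.6 at VILI 6 hours. Its control level was close to that of Krt7, and every VILI library lay above every control. Without control replicate 2, 0% of all genes passed the adjusted threshold at VILI 6 hours, so that Krt80 no longer did. Krt79 was called higher at VILI 0 hours, the largest rise among the keratins called there (0.76 ± 0.29, adjusted p = 0.245), and Krt10 fell at both times (-1.49 ± 0.34, adjusted p = 0.0897, and -0.97 ± 0.34, adjusted p = 0.171), from levels of 1.202 to 1.491 FPKM. Plec, the linker plectin, was called lower at VILI 0 hours (-0.24 ± 0.10, adjusted p = 0.283), higher at VILI 6 hours (0.38 ± 0.10, adjusted p = 0.108) and higher from 0 to 6 hours (0.62 ± 0.10, adjusted p = 0.143).

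Cav1 belongs to the caveola, and of 8 other caveola genes 1 was called lower at VILI 0 hours and 2 were called lower and 1 higher at VILI 6 hours. Of all genes tested, 9.35% were called lower at VILI 0 hours, and 12.2% lower and 8.17% higher at VILI 6 hours. Cavin2, a coat protein of caveolae, fell the most of those called at VILI 6 hours (-0.53 ± 0.15, adjusted p = 0.112), from 233 to 280 FPKM in controls to 214, 179 and 141, and Cav2, the partner of Cav1, fell too (-0.40 ± 0.13, adjusted p = 0.148). Both were also called lower against VILI 0 hours (-0.66 ± 0.15, adjusted p = 0.226, and -0.54 ± 0.13, adjusted p = 0.248). Pacsin2, a membrane-bending protein, was higher at VILI 6 hours (0.21 ± 0.08, adjusted p = 0.217). Cav3, the muscle caveolin, was the one called at VILI 0 hours (-0.76 ± 0.27, adjusted p = 0.219), at 1.03 to 1.62 FPKM in controls and 0.478 to 0.900 FPKM. Without replicate 1 of VILI 6 hours, 5 of the 8 were called lower at that time, where 26% of all genes were.

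Caveola genes are also abundant in endothelium. Of 12 blood endothelial markers, 3 were called lower at VILI 0 hours and 5 at VILI 6 hours, and none higher at either time. Of all genes tested, 9.35% and 12.2% were called lower. Calcrl, an adrenomedullin receptor gene, fell the most of those called at both (-0.60 ± 0.26, adjusted p = 0.289, and -0.88 ± 0.26, adjusted p = 0.125). The defining markers were not called: Pecam1 had 181 to 190 FPKM in controls and 146, 207 and 222 at VILI 6 hours, and Cdh5, VE-cadherin, had 245 to 258 in controls and 207, 332 and 317. The part of endothelium in the Cav1 values was not tested.

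Ager encodes the receptor RAGE, and of 9 ligands and partners of RAGE, 4 were called higher and none lower at VILI 0 hours, and 5 higher and 1 lower at VILI 6 hours. Of all genes tested, 6.81% were called higher at VILI 0 hours, and 8.17% higher and 12.2% lower at VILI 6 hours. S100a8 and S100a9, the neutrophil calgranulins, rose the most of those called (4.08 ± 0.44, adjusted p = 0.0204, and 3.84 ± 0.46, adjusted p = 0.0247, at VILI 0 hours by limma), S100a9 from 23.4 to 29.3 FPKM in controls to 238, 554 and 1100 at VILI 6 hours. Both genes are also on the list of neutrophil markers, of which 8 of 10 were called higher at VILI 0 hours and 9 of 10 at VILI 6 hours. Hmgb1, a nuclear protein that can bind RAGE, fell at VILI 6 hours (-0.32 ± 0.09, adjusted p = 0.123). Ager itself was not called at either time.

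Markers of the other epithelial cells were measured beside the members. Of 12 pan-epithelial genes, 1 was called higher at VILI 0 hours and 5 at VILI 6 hours, and none lower. Of all genes tested, 6.81% and 8.17% were called higher. Not all of the 12 rose: 4 had a positive log2 fold change at VILI 0 hours and 9 at VILI 6 hours. Nkx2-1 had 58.5 to 63.0 FPKM in controls, 44.2, 52.8 and 56.6 at VILI 0 hours and 66.7, 49.3 and 29.9 at VILI 6 hours. Foxa2 had 16.3 to 18.8, then 10.8, 13.6 and 11.1, and 22.2, 11.9 and 7.65 in the same order. Elf3, an epithelial transcription factor gene, was the largest of those called at VILI 6 hours (0.92 ± 0.30, adjusted p = 0.149), and the adhesion genes Epcam and Cdh1 had 0.35 ± 0.12 (adjusted p = 0.171) and 0.30 ± 0.10 (adjusted p = 0.159). Cldn3, a claudin, was the one called at VILI 0 hours (0.35 ± 0.13, adjusted p = 0.248). When the libraries were centred on these 12 genes, 2 of the 10 members were called at VILI 6 hours (Pdpn higher and Emp2 lower, at -0.43), where 32.8% of all genes were called and 10.7% of those called were higher. Hopx (0.11), Krt18 (0.36) and Krt19 (0.15) were then not called at VILI 6 hours. From VILI 0 to 6 hours, Hopx (-0.45) and Emp2 (-0.48) were called lower on this scale, where 26.8% of all genes were called and 4.36% of those called were higher. Pdpn and Krt18 at VILI 6 hours were then closer to 0 than on the FPKM scale.

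Of 12 alveolar type 2 markers, 2 were called higher and 1 lower at VILI 0 hours, and none higher and 2 lower at VILI 6 hours. For this list and the airway and fibroblast lists below, the shares over all genes were 6.81% higher and 9.35% lower at VILI 0 hours. At VILI 6 hours they were 8.17% and 12.2%. The surfactant gene Sftpc had 10650 to 11950 FPKM in controls, 9940 to 12504 at VILI 0 hours and 9684 to 10439 at VILI 6 hours; the VILI 0 hours range overlapped that of the controls, all VILI 6 hours libraries lay below the controls, and Sftpc was not called at either time. Cxcl15, a lung chemokine gene, rose the most of those called at VILI 0 hours (0.81 ± 0.28, adjusted p = 0.202), Muc1, a membrane mucin, fell the most of those called there (-0.39 ± 0.13, adjusted p = 0.204), and Lamp3, a lamellar body protein, fell the most of those called at VILI 6 hours (-0.31 ± 0.12, adjusted p = 0.208). Of 10 airway markers, 1 was called higher at VILI 0 hours (Bpifa1, 1.09 ± 0.48, adjusted p = 0.305) and 1 higher and 1 lower at VILI 6 hours (Scgb3a1, 0.73 ± 0.19, adjusted p = 0.101, and Tppp3, -0.63 ± 0.27, adjusted p = 0.226). Of 8 fibroblast markers, 1 was called higher and 3 lower at VILI 0 hours and 3 lower at VILI 6 hours, the largest fall among those called being that of Npnt at VILI 6 hours (-0.56 ± 0.12, adjusted p = 0.0733). No cardiac muscle marker was called against control, and of 10 T and natural killer cell markers 1 (Ncr1) was called lower at each time. The part of these cell types in the member values was not tested.

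Over the 9 libraries, the genes whose course was most like that of Krt8 and of Ager were found among 14107 genes with a mean of at least 1 FPKM; this is a description, over 9 libraries that share 1 scale and 3 groups. For Krt8 the highest Pearson r on log2(FPKM + 0.1) were those of Akap12 (0.98), a scaffold protein for protein kinase A, Timm23 (0.97) and Grpel1 (0.95), 2 components of mitochondrial protein import, Gtf2f2 (0.94), a general transcription factor subunit, and Chd2 (0.94), a chromatin remodeller. Akap12 had 40.4 to 44.6 FPKM in controls, 68.6, 38.5 and 38.7 at VILI 0 hours and 52.6, 47.4 and 74.9 at VILI 6 hours, high in the same 2 libraries as Krt8. Spearman rho, which uses ranks only, was lower for these genes: 0.87, 0.77, 0.62, 0.85 and 0.92 in the order named. For Ager the highest 4 were those of Prkar2a (0.93), a regulatory subunit of protein kinase A, Arhgdig (0.92), Dpm2 (0.92) and Ubxn11 (0.92). Prkar2a had 21.7 to 22.6 FPKM in controls, 23.3, 31.1 and 24.2 at VILI 0 hours and 30.0, 25.6 and 21.1 at VILI 6 hours.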

How the data were processed

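RNA from whole lung of 9 mice (3 per group) was sequenced. Per the labels, the authors aligned reads to GRCm38 with TopHat2 2.0.9 and Bowtie2 2.0.6 and used Cuffdiff 2.1.1, and the methods of the study also name Scripture and Cufflinks. The sources differ on the sequencer and the library kit. The deposited table holds FPKM per transcript for 60108 rows and no counts; read totals listed by the study were not used here. The error of a fold change is taken from the spread within all 3 groups of 3 mice together. A single outlying library therefore widens the intervals of every comparison of that gene. FPKM depends on what else a library holds.

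Rows were summed per gene (27203 identifiers; 23503 of 23713 Ensembl identifiers matched GENCODE M21). Genes with a mean of at least 0.1 FPKM were tested on log2(FPKM + 0.1) with limma 3.58.1 (R 4.3.3; empirical Bayes with a trend, group as the only term, all 9 libraries in 1 fit, two-sided, Benjamini-Hochberg adjustment). Fold changes are on that scale, which understates the change of low genes. The fit was tested on simulated data. Exact permutation tests went through all 20 divisions of the 6 libraries compared (Python 3.11.15). The separate origin of the samples rests on the methods of the study. Samples were grouped by their labels.

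Besides the 10 members, the text names, for each other list and comparison, the called genes with the largest rise and fall and the first 2 genes of the list, transcript rows with a mean of at least 1 FPKM, and the 5 genes most like Ager and Krt8, of which 1 is not reported here; other list genes were added after their values were seen. The members and lists were chosen with earlier results of these data known. Alternatives covered pseudocounts, filters, scaling, the libraries in the fit, a replicate block, the trend, the top transcript row and leaving out each library; the counts of list genes without each library were added after seeing the data.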

Additional observations from a re-analysis of the deposited data

How the results depend on the processing

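Of the member values recomputed under the alternatives, 521 kept their direction and their side of the threshold, 35 kept the direction but lost the call, 19 gained one and 25 changed sign. The number of members called at VILI 6 hours was 4, and it was 2 with centring on the pan-epithelial list and 2 without a trend, where 32.8% and 19.2% of all genes were called. From VILI 0 to 6 hours it was 0, and 2 with pan-epithelial centring (26.8% of all genes). At an adjusted p, 3 members (Hopx, Pdpn and Krt7) passed at VILI 0 hours when only the 6 libraries compared were fitted, where 8.24% of all genes passed. With 1 library left out, 2 to 3 members were called at VILI 0 hours (0 to 2 at an adjusted p), 1 to 5 at VILI 6 hours (0 to 2) and 0 to 2 from 0 to 6 hours (0 to 0), where 10.2% to 23.2%, 13.1% to 38.8% and 7.26% to 22.4% of all genes passed an unadjusted P. The lowest count at VILI 6 hours came without control replicate 1 or 2 (14.4% and 13.1% of all genes). The members that passed an adjusted p did so without VILI 6 hours replicate 1. They were Hopx and Pdpn at VILI 0 hours, where 6.93% of all genes passed, and Pdpn and Krt18 at VILI 6 hours, where 23.3% did.

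Of the values that changed sign, 1 was called with the new sign: Cav1 at VILI 0 hours, 0.28 without replicate 3 of that group. At VILI 0 hours, Cav1 was 0.061 with median centring and 0.038 with pan-epithelial centring, and Emp2 was 0.072 and 0.050. With pan-epithelial centring, Ager was -0.0073 at VILI 6 hours, and from 0 to 6 hours Ager was -0.23, Pdpn -0.044, Krt8 -0.044, Krt18 -0.050 and Krt19 -0.039. With 1 library left out, the values at VILI 0 hours ran from -0.39 to 0.20 for Rtkn2, from -0.22 to 0.28 for Cav1, from -0.073 to 0.0048 for Emp2 and from -0.0035 to 0.33 for Krt8, and at VILI 6 hours from -0.62 to 0.25 for Rtkn2. From 0 to 6 hours they ran from -0.087 to 0.20 for Ager, from -0.50 to 0.36 for Rtkn2, from -0.48 to 0.022 for Cav1 and from -0.19 to 0.090 for Krt7. The cause was not tested.

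Counts over all genes moved more. At an adjusted p, 55 genes were called at VILI 0 hours, and 15 with a pseudocount of 1, 1 with no filter, 26 with pan-epithelial centring, 1597 with the 6 libraries compared (5094 at an unadjusted P, against 3130), 20 without a trend, 7 with the top row and 1 to 1343 with 1 library left out. At VILI 6 hours 136 were called, and 75 with no filter, 1584 with pan-epithelial centring (6359 at an unadjusted P, against 3952), 36 with the 6 libraries, 41 without a trend, 11 with the top row and 0 to 4512 with 1 library left out. From 0 to 6 hours, 1938 genes passed an unadjusted P, and 5189 with pan-epithelial centring, 1210 with the 6 libraries and 1407 to 4350 with 1 library left out; at an adjusted p it was 0, and 0 to 356 with 1 library left out. The share of called genes that were higher was 30% at VILI 0 hours and 64.6% from 0 to 6 hours with equal sums, and 53.9%, 10.7% and 4.36% with pan-epithelial centring. Replicate numbers did not pair the libraries (correlations of -0.22 to 0.02): with the replicate block 10 genes at VILI 0 hours and 43 at VILI 6 hours passed an adjusted p, and Krt7 at VILI 0 hours (log2 0.33) and Hopx at VILI 6 hours (log2 0.28) were no longer called.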
